A study of Mus musculus with 3 samples.

Results

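The solute carriers are the membrane transporters whose mouse symbols consist of Slc, a family number, the letter a and a member number. They were taken here as every array oligo that the platform's probe-to-gene annotation gives exactly 1 symbol of that form, leaving out the glucose transporters Slc2a1 and Slc2a3. The rule found 245 of 21819 library oligos, for 228 genes. Of these, 220 had a value on all 3 arrays and were tested among 19635 genes and unnamed oligos. The other 8 were not tested: Slc12a5, Slc17a5, Slc25a15 and Slc46a3 had no value, Slc45a2 had a value on 1 array, and Slc10a2, Slc17a9 and Slc6a19os had values on 2. Of the 228 symbols, 6 are not transporters but adaptor, binding-protein or antisense genes that carry a transporter's symbol as a stem (Slc9a3r1, Slc9a3r2, Slc4a1ap, Slc7a6os, Slc36a1os and Slc6a19os).

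Each of the 3 two-colour arrays set amplified RNA of the embryonic kidney at 13.5 days post coitum (dpc) beside RNA of the metanephric mesenchyme at 10.5 dpc, the tissue from which the nephrons form. Both tissues came from microdissected, normal CD1 mouse embryos with the sexes pooled, and no common reference was used. The labels name a dye swap but not the array it applies to, nor which tissue is the numerator of the deposited ratio. Values are therefore given as log2 ratios on the positive or the negative side, with no tissue named as higher, and a log2 ratio of 1 is a 2-fold difference in abundance between the tissues. Nothing in the labels says that the arrays carried separate tissue pools, so each SD and p-value covers array-to-array variation alone and may be purely technical. The number of arrays, not a read depth, limits the precision: the median standard error of a gene's mean was 0.19.

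Solute carriers move ions, sugars, amino acids, metals, nucleosides and organic acids across cell membranes, and the Slc25 family moves metabolites across the inner mitochondrial membrane. In the mature kidney, carriers on the apical and basolateral sides of the tubule return filtered solutes to the blood and secrete organic ions. Other members serve dividing cells in general, and developing red cells use a set of their own for iron, heme and bicarbonate.

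Over the 220 genes, most substrate classes had a median near 0. Single carriers with an unadjusted limma p under 0.05 lay on both sides for zinc and amino acids. Those for iron were positive and those for phosphate negative. None passed adjustment, and the share of such genes among solute carriers was near that of all genes. The median log2 ratio of the solute carriers was -0.0048 (SD of the 3 array medians 0.032), against 0.0020 for all genes tested. Their means ran from -2.36 to 1.21, and the median size of a mean was 0.28, against 0.25 for all genes. A positive mean was found for 107 of 220 members (48.6%), against 50.3% of all genes.

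No member passed an adjusted p of 0.05 (limma's moderated test of the mean against 0, Benjamini-Hochberg over all 19635), a level that 1 gene reached, or 0.00509% of all genes. With genes at the lowest deposited ratio left out, 0 genes reached it. The smallest adjusted p of a member was 0.107, for Slc39a7. Without adjustment, 21 members had a p under 0.05 on the positive side (9.55%), against 8.99% of all genes, and 20 on the negative side (9.09%), against 7.83%. Together these were 41 members, or 18.6%, beside 16.8% of all genes, so the share is near the background. The same sign on all 3 arrays was found for 51 members on the positive side (23.2%, against 21.5% of all genes) and 50 on the negative (22.7%, against 19.9%). A mean of at least 1 on the log2 scale was reached by 6 members (2.73%, against 2.35%), and one of -1 or below by 9 (4.09%, against 2.98%). In what follows, p under 0.05 means this unadjusted limma p, and no gene so marked passed the adjusted threshold. Any count of such genes in a class or list is to be read beside the 16.8% of all genes.

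**Figure D1:**
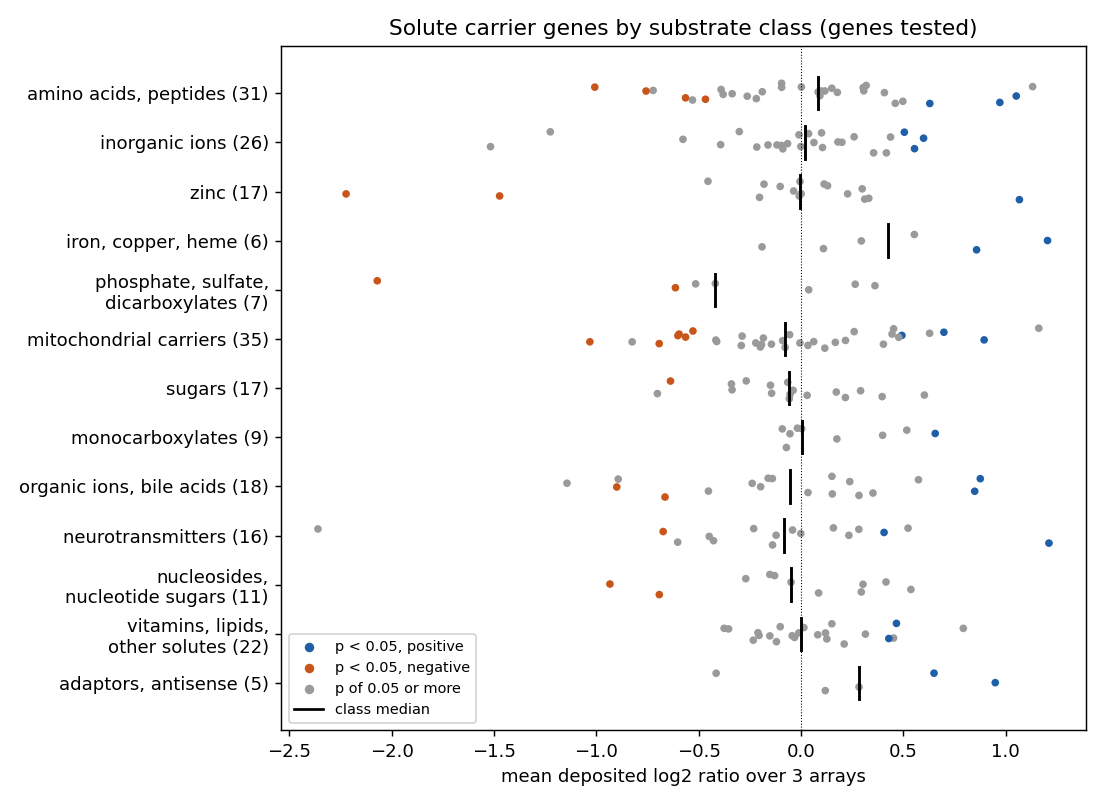
Mean deposited log2 ratio over 3 arrays (x axis) of each of the 220 tested solute carrier genes, in rows by substrate class with the number of genes. Each point is a gene, coloured where its unadjusted limma p was under 0.05, and black bars are class medians. The iron, copper and heme carriers have a median of 0.42 (0.13 without array 1) and the phosphate, sulfate and dicarboxylate carriers one of -0.42 (-0.18 without array 2), while the other transporter classes have medians between -0.081 and 0.084.

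Zinc carriers of the Slc30 (ZnT) and Slc39 (ZIP) families gave the members with the smallest p on the negative side and the next to smallest on the positive side. ZIP proteins bring zinc into the cytosol and ZnT proteins take it out. The promoters of the 3 zinc genes with p under 0.05 are shown with those of Slc30a1 and Slc30a4. For Slc30a1 a metal response element, the site of the zinc-sensing factor MTF-1, is known. Slc30a4 is the zinc gene whose window held the most matches to the motif given below. The genes shown are therefore not a fair sample of the class. Each line holds the 250 bases before a RefSeq transcript start (build GRCm38.p6), read 5′ to 3′ on the gene's strand, and capitals mark a match to TGCACNC or TGCGCNC on either strand. The windows are chr17:34031691-34031940 (minus strand) for Slc39a7, chr5:67306705-67306954 (plus strand) for Slc30a9, chr1:46853619-46853868 (minus strand) for Slc39a10, chr1:191906531-191906780 (plus strand) for Slc30a1 and chr2:122702664-122702913 (minus strand) for Slc30a4.
Slc39a7: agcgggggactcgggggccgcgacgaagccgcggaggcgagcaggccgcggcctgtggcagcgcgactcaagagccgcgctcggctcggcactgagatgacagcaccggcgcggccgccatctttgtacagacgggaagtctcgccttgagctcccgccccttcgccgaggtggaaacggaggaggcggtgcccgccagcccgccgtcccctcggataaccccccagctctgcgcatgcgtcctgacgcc
Slc30a9: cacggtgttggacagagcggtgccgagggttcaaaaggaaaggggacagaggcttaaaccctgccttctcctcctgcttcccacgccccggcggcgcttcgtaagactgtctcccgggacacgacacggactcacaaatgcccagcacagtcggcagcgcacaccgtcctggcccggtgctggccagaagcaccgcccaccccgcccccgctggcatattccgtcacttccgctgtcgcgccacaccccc
Slc39a10: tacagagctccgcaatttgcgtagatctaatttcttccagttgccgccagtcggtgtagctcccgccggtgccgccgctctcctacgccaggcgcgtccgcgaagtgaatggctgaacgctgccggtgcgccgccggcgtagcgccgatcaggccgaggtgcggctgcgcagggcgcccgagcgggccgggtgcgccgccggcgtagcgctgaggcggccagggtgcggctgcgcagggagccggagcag
Slc30a1: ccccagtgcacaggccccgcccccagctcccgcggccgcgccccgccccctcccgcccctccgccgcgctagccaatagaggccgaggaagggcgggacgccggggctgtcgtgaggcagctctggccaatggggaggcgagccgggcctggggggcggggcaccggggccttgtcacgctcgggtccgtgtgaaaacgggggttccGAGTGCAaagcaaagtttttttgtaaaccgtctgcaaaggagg
Slc30a4: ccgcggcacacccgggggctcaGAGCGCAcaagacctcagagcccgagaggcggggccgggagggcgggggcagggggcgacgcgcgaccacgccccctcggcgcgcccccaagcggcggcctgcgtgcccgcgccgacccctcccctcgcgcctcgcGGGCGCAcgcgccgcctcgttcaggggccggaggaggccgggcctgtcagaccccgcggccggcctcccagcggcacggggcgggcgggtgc

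The motif was found in 0 windows of Slc39a7, Slc30a9 and Slc39a10. Slc30a1 held 1 match, 43 bases before its start, and Slc30a4 held 2, the most of any zinc window. Of the zinc genes not shown, Slc30a6, Slc30a7, Slc39a1, Slc39a9 and Slc39a13 also held 0 matches. None of these was among the zinc genes marked by p, so lack of a match did not set the marked genes apart. The others not shown, Slc30a3, Slc30a5, Slc39a3, Slc39a5, Slc39a8 and Slc39a11, held a match in at least 1 window. A link between matches and log2 ratios was not tested. Among the zinc carriers, 9 of 21 windows held a match (42.9%), beside 63 of 239 windows of all solute carriers (26.4%) and 21.4% of all 32851 RefSeq windows of this length. Monocarboxylate carriers had the same share (3 of 7 windows, 42.9%), and carriers of vitamins and other solutes 39.1%. The lowest class was the amino acid carriers, at 16.1%. The share was thus not particular to the zinc carriers. RefSeq starts were matched for 16 of the 17 zinc genes and 182 solute carrier genes in all. The Slc39a10 window shown lies inside the gene's RefSeq span. The window at that gene's outer start (chr1:46925777-46926026) is not shown and held 0 matches. A match is a run of letters, not a measured site.

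Slc39a7 encodes ZIP7, which releases zinc from the endoplasmic reticulum. Arrays 1 to 3 gave log2 ratios of -2.21, -1.88 and -2.57. The mean was -2.22 ± 0.35 (SD, n = 3 arrays), a 4.67-fold difference, with a limma adjusted p of 0.107. All 3 arrays lay far to the negative side, with a spread much smaller than the mean. Slc39a10 encodes ZIP10, a zinc importer of the plasma membrane. It stood at 1.11, 1.00 and 1.09 on arrays 1 to 3, a mean of 1.07 ± 0.058 (SD, n = 3 arrays; limma adjusted p = 0.109). These 2 ZIP genes thus lay on opposite sides, each with closely grouped arrays.

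Slc30a9, which encodes the mitochondrial zinc carrier ZnT9, was at -0.97, -2.72 and -0.73, a mean of -1.47 ± 1.09 (SD, n = 3 arrays; limma adjusted p = 0.234). Array 2 lay far below the others. The remaining 14 zinc carriers had p of 0.05 or more and means from -0.45 (Slc39a8) to 0.33 (Slc39a13). Slc30a1, the plasma membrane zinc exporter, was at -0.0083 ± 0.093 and Slc30a4 at -0.036 ± 0.33 (SD, n = 3 arrays). The class of 17 had 8 positive and 9 negative means and a median of -0.0046. Its genes with p under 0.05 were 17.6% of the class, against 16.8% of all genes.

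Among the iron, copper and heme carriers, 5 of 6 means were positive, 2 of them with p under 0.05 (33.3% of the 6, against 16.8% of all genes). The class median was 0.42, or 0.13 without array 1. Slc40a1 encodes ferroportin, the cell's iron exporter. It stood at 1.21, 1.31 and 1.10 on arrays 1 to 3, a mean of 1.21 ± 0.10 (SD, n = 3 arrays), or 2.31-fold (limma adjusted p = 0.108), with the arrays close together. Slc11a1, the divalent metal carrier of macrophage phagosomes, was at 0.71, 1.19 and 0.67, a mean of 0.86 ± 0.29 (SD, n = 3 arrays; limma adjusted p = 0.155). Of 11 macrophage markers tested, 8 had positive means (1 with p under 0.05) and 3 negative (1 with p under 0.05), with a median of 0.18. Those with p under 0.05 were 18.2% of the 11, against 16.8% of all genes. The part of macrophages in the Slc11a1 result was not tested. In RNA of whole tissue, fewer cells of a type and less RNA per cell cannot be told apart. The heme carrier Slc48a1 had a mean of 0.55 ± 0.59 resting mainly on array 1 (1.23, 0.22 and 0.21). Slc11a2, which takes up iron, was at 0.30 ± 0.43 and the copper importer Slc31a1 at -0.19 ± 0.41 (SD, n = 3 arrays).

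The 7 phosphate, sulfate and dicarboxylate carriers had a class median of -0.42, which was -0.18 without array 2 and -0.19 without array 3. Both widely expressed sodium-phosphate carriers of the Slc20 family lay on the negative side. Slc20a2 (PiT-2) was at -2.11, -1.39 and -2.71, a mean of -2.07 ± 0.66 (SD, n = 3 arrays), or 4.20-fold (limma adjusted p = 0.109). Slc20a1 (PiT-1) was at -0.49, -0.58 and -0.77, a mean of -0.61 ± 0.15 (SD, n = 3 arrays; limma adjusted p = 0.190). No array of either gene reached 0. The apical phosphate carrier of the proximal tubule, Slc34a1, was at 0.47, -0.08 and 0.69, a mean of 0.36 ± 0.40, and so lay on both sides of 0.

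**Figure D2:**
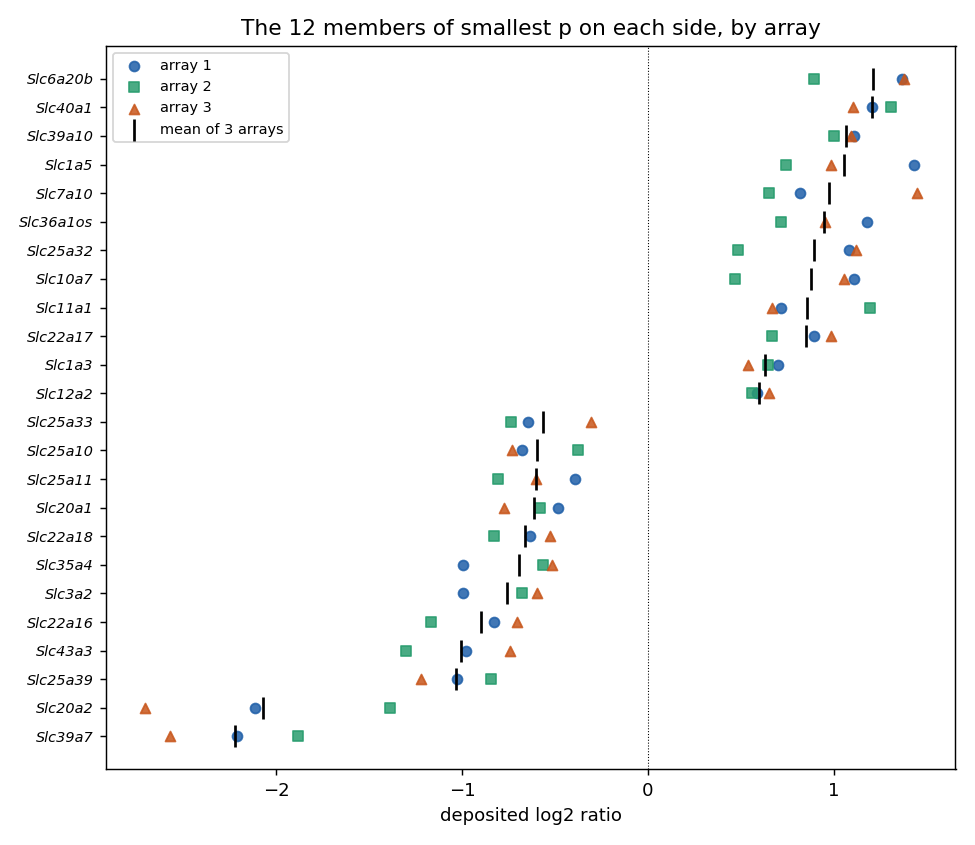
Deposited log2 ratio (x axis) on array 1 (circles), array 2 (squares) and array 3 (triangles) for the 12 solute carrier genes of smallest limma p on each side, with the mean of 3 arrays as a vertical tick. Slc39a7 and Slc20a2 lie below -1 on all arrays, Slc40a1 and Slc39a10 sit at about 1 or above with little spread, and all 24 genes keep their sign on every array, as the rule that chose them requires. A choice by smallest p also favours genes with little spread.

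Amino acid and peptide carriers (31 genes) were split, with 17 positive and 14 negative means and a median of 0.084. Of these, 3 and 4 had p under 0.05 (22.6% of the 31, against 16.8% of all genes). Slc1a5 encodes ASCT2, a glutamine and neutral amino acid exchanger. It was at 1.43, 0.74 and 0.98, a mean of 1.05 ± 0.35 (SD, n = 3 arrays; limma adjusted p = 0.136). Slc1a3, the glutamate carrier GLAST, was at 0.70, 0.65 and 0.54, a mean of 0.63 ± 0.082 (SD, n = 3 arrays; limma adjusted p = 0.174). In both genes the 3 arrays lay on the positive side.

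On the negative side, Slc43a3 was at -0.98, -1.30 and -0.74, a mean of -1.01 ± 0.28 (SD, n = 3 arrays; limma adjusted p = 0.129). It sits in an amino acid family by number but is known to carry purine nucleobases. Its relative Slc43a1 (LAT3), a carrier of branched-chain amino acids, had a mean of -0.56 ± 0.38, and the glutamine carrier Slc38a1 one of -0.47 ± 0.046 with the arrays between -0.49 and -0.41. The largest positive mean of the class was that of the peptide carrier Slc15a2, 1.13 ± 1.49, but its arrays read 2.77, -0.16 and 0.79 and its p was above 0.05.

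Some amino acid carriers work only as heteromers of a heavy chain and a light chain. The heavy chain Slc3a2 (4F2hc, CD98) was at -0.997, -0.68 and -0.60, a mean of -0.76 ± 0.21 (SD, n = 3 arrays; limma adjusted p = 0.161), all negative. Its light chains did not share a side: Slc7a10 (Asc-1) had a mean of 0.97 ± 0.42 (limma adjusted p = 0.167), with arrays at 0.82, 0.65 and 1.45. Slc7a5 (LAT1) was at 0.46 ± 0.27, Slc7a7 at -0.53 ± 0.38, Slc7a8 at -0.39 ± 0.82 and Slc7a11 at -0.094 ± 0.63 (SD, n = 3 arrays), all with p of 0.05 or more. The chains of the renal cystine carrier, Slc3a1 and Slc7a9, had means of 0.15 ± 0.42 and -0.19 ± 0.31, each within its own spread of 0.

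Of the 26 inorganic ion carriers, 13 means were positive and 13 negative, with a median of 0.019. The 3 genes with p under 0.05 (11.5% of the 26, against 16.8% of all genes) were all positive. Slc12a2 (NKCC1), the sodium, potassium and chloride carrier found in many cell types, was at 0.59, 0.56 and 0.65, a mean of 0.60 ± 0.046 (SD, n = 3 arrays; limma adjusted p = 0.180). Slc4a2, the anion exchanger AE2, had a mean of 0.51 ± 0.12 (limma adjusted p = 0.230). The third was Slc8a1, the sodium-calcium exchanger NCX1, at 0.56 ± 0.28, but its value averages 2 oligos that read 1.30 and -0.19. Slc9a3 (NHE3), the apical sodium-proton exchanger, had the lowest mean of the class, -1.52 ± 1.72, from arrays at 0.36, -3.02 and -1.88. Slc24a3, a potassium-dependent sodium-calcium exchanger at -3.12, -0.86 and 0.30, likewise crossed 0.

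The 35 mitochondrial carriers of the Slc25 family had 15 positive and 20 negative means and a median of -0.077. Of these, 3 and 6 had p under 0.05 (25.7% of the 35, against 16.8% of all genes). Slc25a39, which carries glutathione into mitochondria, was at -1.03, -0.85 and -1.22, a mean of -1.03 ± 0.19 (SD, n = 3 arrays; limma adjusted p = 0.112). The dicarboxylate carrier Slc25a10 (-0.60 ± 0.19), the oxoglutarate carrier Slc25a11 (-0.60 ± 0.21), the pyrimidine nucleotide carrier Slc25a33 (-0.56 ± 0.23), the aspartate-glutamate carrier Slc25a13 (-0.53 ± 0.31) and the branched-chain amino acid carrier Slc25a44 (-0.69 ± 0.48) were the other negative genes with p under 0.05 (SD, n = 3 arrays). Over 9 carriers of central metabolism, 7 means were negative and the median was -0.29. Of the 7, 3 had p under 0.05 (33.3% of the 9, against 16.8% of all genes). The adenine nucleotide carriers Slc25a4 (-0.077 ± 0.064) and Slc25a5 (-0.0050 ± 0.12) and the phosphate carrier Slc25a3 (0.063 ± 0.22) lay near 0.

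On the positive side, the folate and FAD carrier Slc25a32 was at 1.08, 0.48 and 1.12, a mean of 0.90 ± 0.36 (SD, n = 3 arrays; limma adjusted p = 0.167). Slc25a16 had a mean of 0.70 ± 0.34 and Slc25a31, an ADP/ATP carrier known from germ cells, one of 0.49 ± 0.15. The glutamate carrier Slc25a22 had the largest mean of the family, 1.16 ± 1.47, which came from array 1 (2.84, against 0.57 and 0.077).

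Carriers of organic ions and bile acids (18 genes) had 9 positive and 9 negative means and a median of -0.053. Slc22a17, a receptor for the iron-binding protein lipocalin 2, was at 0.89, 0.67 and 0.98, a mean of 0.85 ± 0.16 (SD, n = 3 arrays; limma adjusted p = 0.133). Slc10a7, a member of the bile acid carrier family, was at 1.11, 0.47 and 1.05, a mean of 0.88 ± 0.35 (SD, n = 3 arrays; limma adjusted p = 0.170). In contrast, Slc22a16, a carnitine carrier, was at -0.83, -1.16 and -0.71, a mean of -0.90 ± 0.24 (SD, n = 3 arrays; limma adjusted p = 0.139). The imprinted gene Slc22a18 was at -0.64, -0.83 and -0.53, a mean of -0.66 ± 0.15 (SD, n = 3 arrays; limma adjusted p = 0.174). The Slc22 family therefore held genes of both signs, 6 positive and 8 negative. The organic cation carrier Slc22a2 had the lowest mean, -1.14 ± 1.37, set by array 3 (-2.73, against -0.37 and -0.33).

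Of the neurotransmitter families (16 genes, median -0.081), Slc6a20b had the highest mean. This gene belongs to the Slc6 family and encodes a relative of the proline carrier of kidney and gut. It was at 1.37, 0.89 and 1.38, a mean of 1.21 ± 0.28 (SD, n = 3 arrays; limma adjusted p = 0.110). It has a near-identical copy, Slc6a20a, so the oligo may read either. The vesicular glutamate carrier Slc17a7 was at 0.41 ± 0.11, and the dopamine carrier Slc6a3 at -0.67 ± 0.44 with array 2 lowest (-1.18). Neural markers lay on both sides, with 5 positive and 7 negative means of 12 and a median of -0.30, and their part in these values was not tested. Slc6a9, the glycine carrier GlyT1, had the lowest mean of all members, -2.36 ± 3.87, yet its arrays read -4.50, -4.68 and 2.10, so array 3 opposed the others.

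The nucleotide sugar carriers of the Slc35 family carry several letters, and the 5 with the letter a (Slc35a1 to Slc35a5) all had negative means, with a median of -0.27. Among all genes, 50.3% had a positive mean. Of 9 tested Slc35 genes with other letters, which are not members, 8 had negative means and 1 a positive mean (Slc35f2, 0.39 ± 0.37), and 0 had p under 0.05. Slc35a4 was at -0.99, -0.56 and -0.52, a mean of -0.69 ± 0.26 (SD, n = 3 arrays; limma adjusted p = 0.193), and Slc35a5 had a mean of -0.93 ± 0.65. In this class of 11 genes the nucleoside carrier Slc28a2 had the highest mean, 0.54 ± 0.73, set by array 3 (1.38, against 0.11 and 0.13). The 17 carriers in sugar families had 6 positive and 11 negative means and a median of -0.057. Only Slc37a2, a sugar-phosphate exchanger, had p under 0.05 among them, at -0.64 ± 0.41. The inositol carrier Slc5a11 was at 0.60 ± 0.73 and the glucose carrier Slc2a2 at -0.70 ± 1.28, the latter set by array 3 (-2.18). Slc2a1, left out of the members, was listed at the lowest deposited ratio, -6.64, on all 3 arrays, while 0 oligos of the members were at that value.

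Among 9 monocarboxylate carriers, Slc16a14 was the gene with p under 0.05, at 0.66 ± 0.45, and the lactate carriers Slc16a1 and Slc16a3 were at 0.0038 ± 0.27 and -0.017 ± 0.31. The 22 carriers of vitamins, lipids and other solutes had 11 positive and 11 negative means and a median of 0.0023. Slc46a1, the proton-coupled folate carrier, was at 0.47 ± 0.19 and Slc44a3, of the choline carrier family, at 0.43 ± 0.12, both with p under 0.05. All 4 Slc44 genes had positive means, beside 50.3% of all genes, but the value of Slc44a1 averages oligos that read 0.30 and -0.045. The highest mean of these genes, that of Slc44a2 at 0.79 ± 1.38, came from array 3 (2.35, against -0.29 and 0.32). The lowest of the class was the vitamin C carrier Slc23a1, at -0.38 ± 0.37 (SD, n = 3 arrays).

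Of the 5 tested genes that are not transporters, Slc36a1os had the highest mean, with arrays at 1.18, 0.72 and 0.95 and a mean of 0.95 ± 0.23 (SD, n = 3 arrays; limma adjusted p = 0.129). It is named as the opposite-strand gene of Slc36a1, which was at 0.50 ± 0.55, but their spans in RefSeq do not overlap. Slc4a1ap, an adaptor known as kanadaptin, was at 0.65 ± 0.31 with p under 0.05. The scaffold Slc9a3r1, which holds apical carriers in place, was at -0.41 ± 0.19 with p of 0.05 or more.

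Carriers known from the mature tubule, a list of 41 genes, could be tested for 29. Of these, 9 means were positive and 20 negative, with a median of -0.19 (-0.13 without array 1). The widely expressed Slc20a2 and the imprinted gene Slc22a18, both negative, were the 2 genes with p under 0.05. They made up 6.9% of the 29, against 16.8% of all genes. The other means ran from -1.52 (Slc9a3) through -1.14 (Slc22a2) and -0.70 (Slc2a2) to 0.44 for the bicarbonate carrier Slc4a4, 0.57 for the organic anion carrier Slc22a6 and 1.13 for Slc15a2. None of these 6 had p under 0.05. The list leaves out Slc6a20b (1.21 ± 0.28, unadjusted limma p under 0.05), although its oligo may read the listed but untested Slc6a20a. Which tubule carriers have p under 0.05 thus depends on the choice of list. Markers of tubule epithelium lay mostly on the positive side, with 15 of 17 means positive and a median of 0.27 (0.14 without array 2). The kidney cadherin Cdh16 was at 3.31 ± 0.48 and clusterin (Clu) at 1.54 ± 0.37, whereas the endocytic receptor Cubn was at -1.49 ± 0.47 (SD, n = 3 arrays). The 12 stroma markers had 11 positive means and a median of 0.74.

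**Figure D3:**
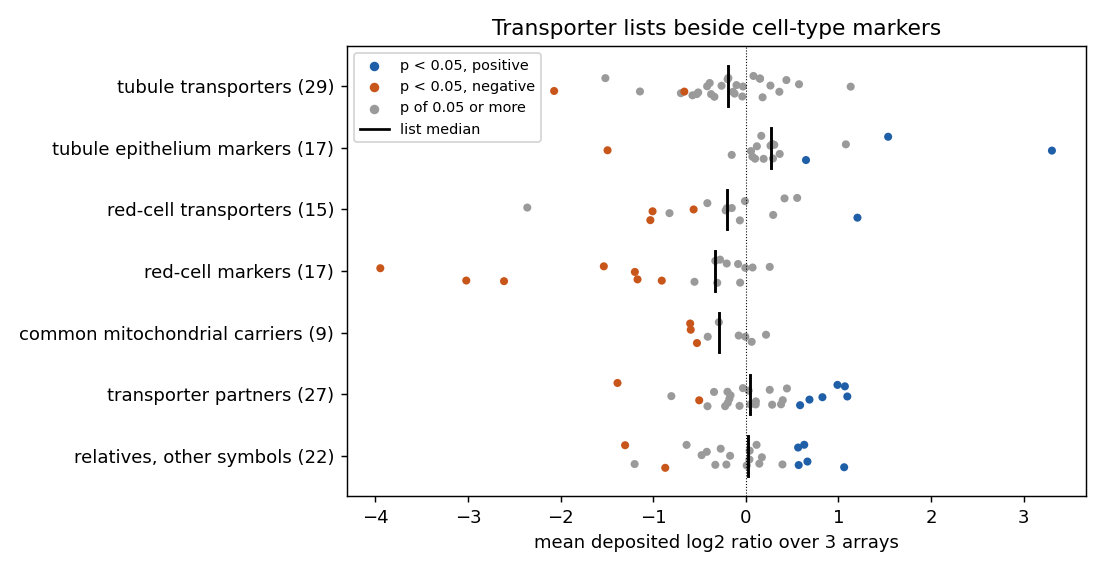
Mean deposited log2 ratio over 3 arrays (x axis) for carriers of the mature tubule and of red cells, common mitochondrial carriers, transporter partners and relatives, set beside markers of tubule epithelium and red cells, with the number of genes tested. Points are genes, coloured by side where the unadjusted limma p was under 0.05, and black bars are medians. Tubule markers have a median of 0.27 and tubule carriers one of -0.19, while red-cell markers (-0.33) and red-cell carriers (-0.20) both have negative medians.

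Carriers known from red cells and their precursors, a list of 17 genes, could be tested for 15, with 4 positive and 11 negative means and a median of -0.20. Slc25a39, Slc43a3 and Slc43a1 had p under 0.05 on the negative side and Slc40a1 on the positive. Together these were 26.7% of the 15, against 16.8% of all genes. The mitochondrial iron importer mitoferrin, Slc25a37, was at -0.62, -0.14 and -1.71, a mean of -0.82 ± 0.81, and the glycine carrier for heme synthesis, Slc25a38, had a mean of -0.42 ± 0.65. All arrays of Slc25a37 were negative, but they differed widely. The band 3 anion exchanger Slc4a1, abundant in the red-cell membrane, was at 0.089, 0.28 and 0.88, a mean of 0.42 ± 0.41, and so lay on the positive side with p above 0.05. The remaining means ran from -2.36 (Slc6a9) to 0.55 (Slc48a1).

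Red-cell markers lay on the same side as most of this list: 15 of 17 tested had negative means, and the median was -0.33 (-0.50 without array 2). Of the 15, 7 had p under 0.05 (41.2% of the 17, against 16.8% of all genes). The embryonic globin Hbb-bh1 was at -3.95 ± 0.32, the transcription factor Klf1 at -3.02 ± 0.29 and the heme synthesis enzyme Alas2 at -1.20 ± 0.24 (SD, n = 3 arrays). Others of the list lay near 0, among them the globins Hbb-y (-0.062 ± 0.26), Hba-x (-0.21 ± 0.15) and Hba-a1 (-0.084 ± 0.13), or above it, as the transferrin receptor Tfrc (0.26 ± 0.23). Other tissues also had negative markers, with 11 of 13 skeletal muscle means (median -0.55) and 14 of 18 liver and gut means (median -0.24) below 0. The part of these cells in the carriers' values was not tested.

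Transporter partners, such as accessory subunits, kinases and carbonic anhydrases, were measured for 27 of 35 genes, with 15 positive and 12 negative means and a median of 0.047. A p under 0.05 was found in 29.6% of the 27, against 16.8% of all genes. On the positive side these were 6 genes. They included kinases of the cation-chloride carriers, Wnk4 (1.10 ± 0.18) and Oxsr1 (0.99 ± 0.14), and the sodium pump subunit Fxyd2 (0.69 ± 0.21). Stk39, the close relative of Oxsr1, was at -0.17 ± 0.23 with p above 0.05. On the negative side, the carbonic anhydrase Car14 (-1.39 ± 0.56) and the sodium pump subunit Atp1b3 (-0.50 ± 0.18) had p under 0.05 (SD, n = 3 arrays). Collectrin (Cltrn), which helps amino acid carriers reach the apical membrane, was at 1.07 ± 0.77, and the amino acid carrier it serves, Slc6a19, at -0.12 ± 0.30.

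The arrays did not agree equally well. Across the 220 genes, which are not independent replicates, Pearson's r was 0.61 between arrays 1 and 2, 0.17 between 1 and 3, and 0.19 between 2 and 3. Over all 19635 the values were 0.46, 0.17 and 0.16, so array 3 stood apart in the same way across the whole table. In 64 members arrays 1 and 2 shared a sign that array 3 opposed, while array 2 opposed the others in 28 and array 1 in 27. An SD of at least 1 was found in 17 members (7.73%), against 8.52% of all genes.

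**Figure D4:**
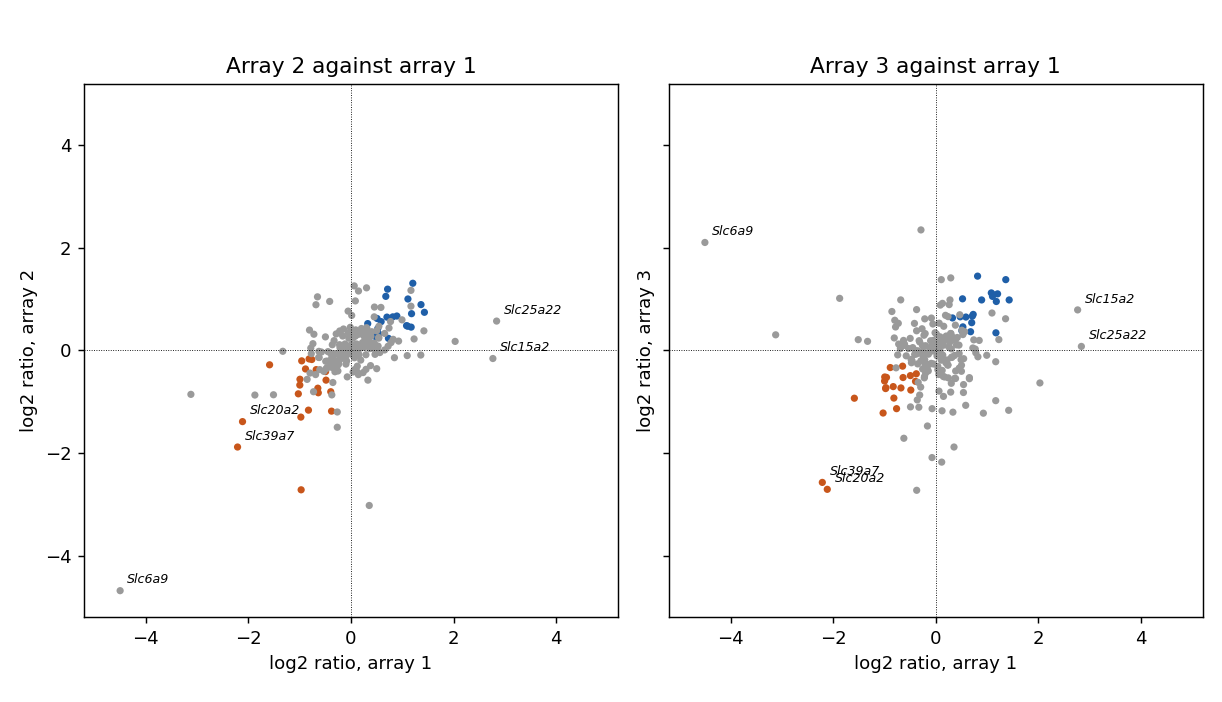
Log2 ratio of each tested solute carrier gene on array 2 (left) and array 3 (right) against array 1, with genes of unadjusted limma p under 0.05 in blue (positive) and orange (negative). Pearson's r is 0.61 on the left and 0.17 on the right, and Slc6a9 lies at the lower left against array 2 (-4.50 and -4.68) but at the upper left against array 3 (2.10).

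The count of members with p under 0.05 depended on which arrays were used. It was 23 of 220 (10.5%) without array 1, 27 (12.3%) without array 2 and 44 (20.0%) without array 3, when 8.55%, 10.6% and 19.9% of all genes had p under 0.05. Of the 41 members, 16 kept p under 0.05 in all 3 such fits, 10 positive and 6 negative. The 41 were chosen on these same arrays, so part of this count was built in. It was not made over all genes and has no background beside it.

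Where a gene was read by several oligos, these often differed. Of 13 members with values on all arrays from more than 1 oligo, 9 had oligos with means of opposite sign (69.2%), against 527 of 1000 named genes (52.7%). Besides Slc8a1, the oligos of the anion exchanger Slc4a3 read -0.96 and 0.53, and those of the amino acid carrier Slc38a4 read 0.62 and -0.39. For Slc1a3, both complete oligos were positive, at 0.41 and 0.85. The gene values of Slc4a3 (-0.22 ± 0.32) and Slc38a4 (0.12 ± 0.15) are means of such unlike oligos. Only 15 of the 228 genes had more than 1 oligo. Of the genes shown above as smallest in p on each side, all but Slc1a3 were read by 1 oligo. These include Slc39a7, Slc20a2, Slc40a1 and Slc39a10. Whether another oligo would give such genes the same sign was not tested.

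**Figure D5:**
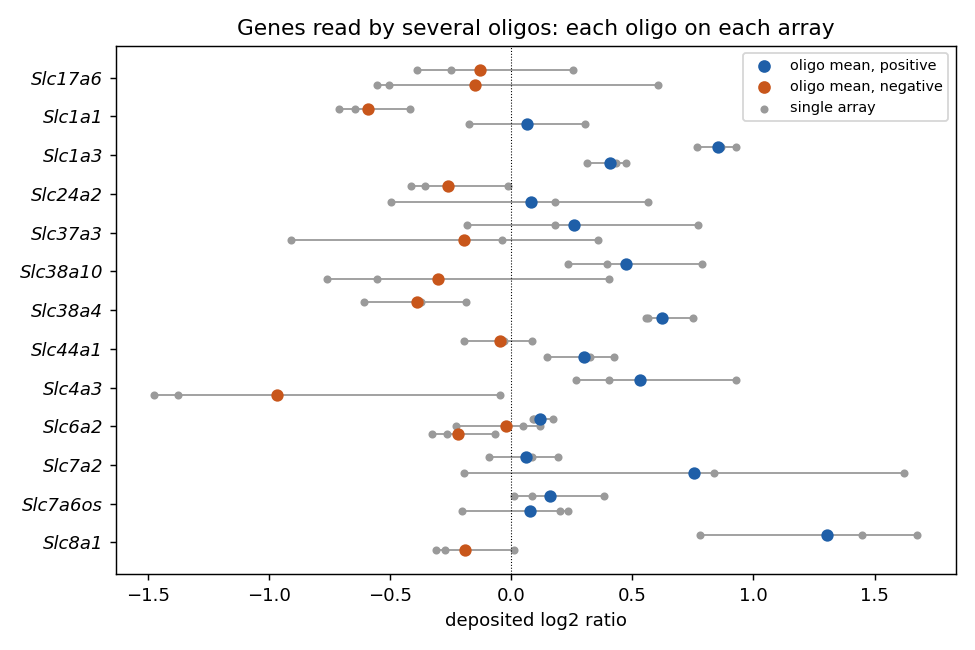
Deposited log2 ratio (x axis) of each oligo of the 13 solute carrier genes that had values on all 3 arrays from more than 1 oligo. Large points are oligo means over 3 arrays, coloured by sign, and small grey points are single arrays. The oligos of Slc8a1 lie at 1.30 and -0.19, and 9 of the 13 genes have oligo means on both sides of 0.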

How the data were processed

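The deposited values are log2 ratios of 2 channels, normalized by the authors before deposit. Per the labels, spots were read with ImaGene 5.5, a print-tip loess and between-array normalization was run in R, the lowess fit used 20.0% of the data, and control values under 10 were set to 10. No background step is given in the sources used here. Of 22702 spots, 883 controls were left out. Oligos were named through the platform's probe-to-gene annotation, where 16656 had 1 symbol, 137 several and 5026 none. Oligos of a symbol were averaged, and 0 value columns were left unmapped.

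Genes with values on all 3 arrays were fitted with limma 3.58.1 in R 4.3.3 (intercept only, lmFit and eBayes, two-sided, Benjamini-Hochberg over 19635), with a prior SD of 0.333. The fit was tested on simulated data. An exact sign-flip test of 3 arrays could not go below p = 0.25, so none is given. There is 1 group, and each array is 1 replicate. No batch is named.

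Members were grouped by family number. Genes named are the 12 of smallest p on each side with 1 sign on all arrays, the largest mean on each side of each class, members of the tubule and red-cell lists, heteromer chains, and genes of other lists with p under 0.05. Genes set beside these for comparison were chosen after their values were seen. Members and lists were chosen with earlier results of these data known. Alternatives were each array left out, single oligos, values on at least 2 arrays, array weights, another scaling, robust moderation, and genes at the lowest ratio left out. Promoters are RefSeq sequences of GRCm38.p6, matched by symbol.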

Additional observations from a re-analysis of the deposited data

How the results depend on the processing

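With 3 arrays, no dye direction and no separate oligo sequences, single genes of small mean have no settled side. The number of solute carriers past the adjusted threshold was 0 under all alternatives tried. Leaving out 1 array, the members with an unadjusted limma p under 0.05 numbered 12 to 24 on the positive side (12 without array 1) and 11 to 20 on the negative side (11 without array 1, 12 without array 2), against 21 and 20. Fewer arrays enter each of these fits. The same leave-one-out fits moved the median of all members between -0.033 and 0.056, of amino acid carriers between -0.081 and 0.072, of ion carriers between 0.020 and 0.087, of mitochondrial carriers between -0.19 and -0.069, of neurotransmitter families between -0.22 and -0.024, of nucleoside and nucleotide sugar carriers between -0.062 and 0.073, of organic ion carriers between -0.17 and 0.064, of vitamin and other carriers between -0.029 and 0.0997, of iron, copper and heme carriers between 0.13 and 0.60, of phosphate, sulfate and dicarboxylate carriers between -0.47 and -0.18, of sugar families between -0.11 and -0.066, of monocarboxylate carriers between -0.054 and 0.12 and of zinc carriers between -0.055 and 0.066. Without array 2 the mitochondrial median was thus below that of the phosphate class. With array weights (1.23, 1.65 and 0.49 for arrays 1 to 3), the medians were 0.035 for all members, 0.047 for ions, 0.019 for organic ions, 0.079 for vitamins and others, 0.057 for zinc, 0.065 for monocarboxylates and -0.28 for phosphate, sulfate and dicarboxylates. The monocarboxylate median was -0.0030 with the arrays centred and scaled. The ion median was 0.038 with each oligo on its own and 0.0048 with the arrays centred and scaled, and the organic ion median was 0.034 with genes on at least 2 arrays. The cause of these shifts was not tested. Of 84 solute carriers named, 72 kept their sign under all alternatives and 12 did not. The alternative of single oligos took a gene's oligo of smallest p, so the opposed oligos of Slc8a1, Slc4a3 and Slc38a4 are not counted here. The count of 72 was partly fixed in advance. The 12 of smallest p on each side were chosen for 1 sign on all arrays, which leaving out or weighting arrays cannot turn. Robust moderation and leaving out genes at the lowest ratio do not change a gene's mean. Leaving out 1 array gave means of -1.11 to 0.037 for Slc2a2, -0.67 to 0.079 for Slc7a8, -0.38 to 0.029 for Slc31a1, -0.081 to 0.33 for Slc3a1, -0.21 to 0.053 for Slc6a19, -0.018 to 0.19 for Slc25a3, -0.37 to 0.25 for Slc7a11, -0.23 to 0.066 for Slc30a4, -0.20 to 0.082 for Slc16a3, -0.055 to 0.038 for Slc30a1, -0.076 to 0.038 for Slc25a5 and -0.14 to 0.12 for Slc16a1. Array weights also turned the sign of Slc30a4 (0.057), Slc16a3 (0.065), Slc25a5 (0.0066) and Slc16a1 (-0.067, and -0.010 with centred and scaled arrays). Leaving out the adaptor and antisense genes, an alternative added after seeing the data like the lists without 1 array, gave 19 positive and 20 negative members with p under 0.05. Both tissues were on each array, so the test of the log2 ratio against 0 was already paired within arrays.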

Other observations

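Several transporter families carry symbols other than Slc, and 22 of 28 such genes on a list could be tested. Their means were positive in 12 and negative in 10, with a median of 0.024 that was -0.092 without array 2 and -0.0079 without array 3. The lysosomal phospholipid carrier Spns1 was at -1.54, -1.11 and -1.27, a mean of -1.30 ± 0.21 (SD, n = 3 arrays; limma adjusted p = 0.109), all far to the negative side. Its relative Spns2, which exports sphingosine-1-phosphate, had a mean of -0.87 ± 0.49. On the positive side with an unadjusted limma p under 0.05 were the ammonium channel Rhcg (0.67 ± 0.30), Flvcr1 (0.57 ± 0.36) and Flvcr2 (1.06 ± 0.61) of the heme and choline carrier family, the mitochondrial serine carrier relative Sfxn2 (0.63 ± 0.32) and the mitochondrial pyruvate carrier subunit Mpc1 (0.56 ± 0.20). These 7 genes were 31.8% of the 22, against 16.8% of all genes with p under 0.05, and none passed the adjusted threshold.

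The transporter partners Cltrn, Pdzk1ip1 (0.83 ± 0.65) and Car4 (0.59 ± 0.24) were the other partners with p under 0.05 on the positive side (SD, n = 3 arrays).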
